A study of Drosophila melanogaster with 12 samples.

Results

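The 10 genes described here encode the heat-inducible Hsp70 chaperone (Hsp70Aa, Hsp70Ab, Hsp70Ba, Hsp70Bb, Hsp70Bbb and Hsp70Bc), its relative Hsp68, the Hsp90 chaperone Hsp83, the Hsp70 partner DnaJ-1 and the regulator Hsf. They were chosen by gene symbol, out of 13922 protein-coding genes, with earlier results of these data known, among them the RNA levels of Hsp83 and Hsp70Ba and the order of Hsp70Ba over the libraries. RNA values and peaks are therefore given as a description, with no test. The study profiled the central nervous system (CNS) of wandering larvae of the last instar of Drosophila melanogaster. Binding was measured by targeted DamID, in which a bacterial adenine methylase (Dam) fused to a protein methylates GATC sites wherever that protein meets the genome. There were 2 Dam-Sd samples, 2 Dam-Nerfin-1 samples and 2 Dam-only samples. Sd (Scalloped) is the fly TEAD-family factor and Nerfin-1 is a zinc-finger factor of young neurons. Open chromatin (ATAC-seq, 3 samples) and RNA (3 samples) came from sorted GFP-positive cells.

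The DamID larvae carried the genotype w; tubGal80TS/+; GMR31H08-Gal4, UAS-GFP over a pUAST-LT3 transgene at attP2. That transgene encoded Dam-Sd, Dam-Nerfin-1 or Dam alone, so all 3 groups also expressed GFP and Gal4. The GMR31H08 driver limited the transgenes to the cells in which it is active, while DNA was taken from whole CNSs. After egg laying at 25°C these animals were kept at 18°C for 4 days and moved to 29°C for the last 24 hours before dissection. The ATAC and RNA samples carried P[nerfin-1.GFP-NLS.SV-40], named iA in the labels, a nuclear GFP reporter of nerfin-1, in flies reared at 25°C. Binding of these temperature-responsive genes was thus measured after a shift to a warmer temperature, and their RNA and chromatin without that shift. Each RNA sample was a pool of RNA from sorts done on different days (180 to 330 ng), so the spread between libraries is that between pools. In these bulk samples, fewer cells with a transcript and less of it per cell cannot be told apart.

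Hsp70 binds unfolded stretches of other proteins and releases them in cycles driven by ATP. J-domain proteins such as DnaJ-1 deliver the client and speed up ATP hydrolysis. Hsp90, called Hsp83 in the fly, acts later on partly folded clients such as kinases and hormone receptors. In unstressed fly cells the inducible Hsp70 genes are nearly silent, with RNA polymerase paused near their start. On heat or protein damage Hsf binds heat-shock elements at the promoters and the genes are transcribed strongly, while the cognate gene Hsc70-4 supplies Hsp70 activity in normal conditions. Hsp83 and DnaJ-1 are expressed without stress and induced further by it.

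All 10 genes were in the authors' RNA table, which lists 5135 genes that they kept as expressed and 35.5% of the protein-coding genes. Their symbols, FlyBase identifiers and dm6 positions are given with their values. The RNA libraries are called S1, S2 and S3, after the ends of their column names, because these names do not show which replicate each is. Levels are counts in CPM, that is per 1000000 of the counts listed for a library, and the listed counts totalled 43555895 (S1), 44657928 (S2) and 57468071 (S3). Of the neuronal markers, 7 of 8 were listed, with summed levels of 7195 CPM (S1), 7198 CPM (S2) and 6838 CPM (S3). For other cells the table held 1 of 6 progenitor markers, 1 of 6 glial, 1 of 5 hemocyte and 0 of 6 fat body and muscle markers. The progenitor gene ase stood at 31.6 CPM (S1), 58.2 CPM (S2) and 52.6 CPM (S3), the glial gene nrv2 at 122, 131 and 135, and the hemocyte gene Pxn at 112, 138 and 143. The defining markers dpn, repo and Hml were not listed. Single neuronal markers also differed: 4 of the 7 were highest in S1 and lowest in S3, with S2 between (5 with edgeR's TMM factors and 6 with DESeq2's size factors). Of all listed genes 8.26% had this order on CPM, 24.4% with TMM factors and 25.6% with DESeq2's. In this order, brp stood at 1504, 1273 and 1110 CPM in S1, S2 and S3, the widest range of the 7 with a ratio of 1.36. The most abundant of the 7, fne, was instead lowest in S1, at 2200 CPM against 2547 CPM (S2) and 2478 CPM (S3). The part of other cells in the values below was not tested.

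The 6 inducible Hsp70 genes were among the most abundant RNAs of the table and differed about 3-fold between its libraries. Summed over the copies they made up 2.19% of the listed counts in S1, 1.30% in S2 and 0.69% in S3. This corresponds to 21928, 12973 and 6904 CPM, with a mean of 13935 ± 7558 CPM (SD, n = 3). S1 held 3.18 times the summed level of S3, with S2 between them.

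Hsp70Aa (FBgn0013275; 3R, 11954163 to 11956544) stood at 4845 CPM (S1), 3029 CPM (S2) and 1482 CPM (S3). Hsp70Ab (FBgn0013276; 3R, 11958535 to 11960909), which lies 1990 bp away, stood at 4233, 2658 and 1286 CPM in the same libraries. In both genes S1 was highest and S3 lowest, and they ranked 16 and 24 by mean level among the listed genes. Hsp70Ba (FBgn0013277; 3R, 12465453 to 12467776) stood at 4952 CPM (S1), 2769 CPM (S2) and 1591 CPM (S3). The other 3 copies, Hsp70Bbb, Hsp70Bb and Hsp70Bc, lie in tandem 34733 bp further along the arm. Hsp70Bc (FBgn0013279; 3R, 12509076 to 12511461) was close to Hsp70Ba, at 4655 CPM (S1), 2645 CPM (S2) and 1507 CPM (S3).

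Hsp70Bb (FBgn0013278; 3R, 12505793 to 12508139) was lower, at 2055 CPM (S1), 1177 CPM (S2) and 650 CPM (S3). Hsp70Bbb (FBgn0051354; 3R, 12502510 to 12504856) was the lowest copy, at 1189, 695 and 390 CPM. The order over libraries was again S1, S2 and S3. The Hsp70 copies are near identical, and the labels do not describe how reads that match several of them were counted. The split of reads between copies is therefore uncertain, and their sum would be too low if such reads were left out.

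The share that each copy took of all Hsp70 counts hardly moved between libraries. It was 22.3% ± 0.96 for Hsp70Aa, 22.3% ± 0.88 for Hsp70Ba and 21.1% ± 0.72 for Hsp70Bc (SD, n = 3). Hsp70Ab took 19.5% ± 0.94, Hsp70Bb 9.28% ± 0.19 and Hsp70Bbb 5.47% ± 0.15 (SD, n = 3). If reads shared by the copies were spread over them, even shares would follow from the counting, so these shares do not show that each copy differed alike. The pair Hsp70Aa and Hsp70Ab took its largest shares in S2, at 23.4% and 20.5%, against 22.1% and 19.3% in S1 and 21.5% and 18.6% in S3.

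**Figure D1:**
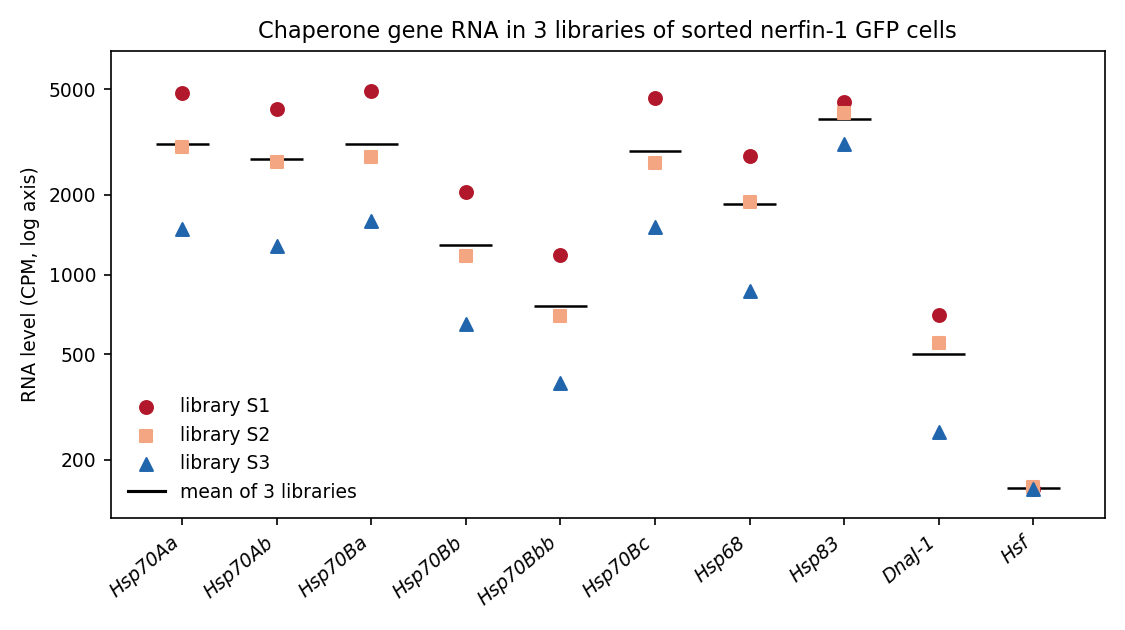
RNA level of each of the 10 genes in libraries S1, S2 and S3 of sorted nerfin-1 GFP cells, in CPM on a log axis, with the mean of the 3 libraries as a line. S1 is highest and S3 lowest for 9 of the 10 genes, and the 3 values of Hsf lie between 155 and 157 CPM on this scaling (149 to 161 with TMM factors).

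Hsp68 (FBgn0001230; 3R, 24055080 to 24057310), an inducible Hsp70 relative encoded elsewhere on the arm, showed the same order of libraries. It stood at 2815 CPM (S1), 1882 CPM (S2) and 866 CPM (S3), a ratio of 3.25 between S1 and S3. DnaJ-1 (FBgn0263106; 3L, 5750029 to 5752189), the J-domain partner that is itself heat-inducible, stood at 701 CPM (S1), 551 CPM (S2) and 254 CPM (S3). Its ratio was 2.77, and S2 lay closer to S1 than in the Hsp70 genes.

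Hsp83 (FBgn0001233; 3L, 3192969 to 3197059) was the most abundant of the 10 genes in mean CPM, at 4469 CPM (S1), 4070 CPM (S2) and 3099 CPM (S3). It kept the order of the libraries, and its highest value was 1.44 times its lowest, a smaller ratio than in Hsp68 and DnaJ-1. Still, 97.6% of the listed genes had a lower ratio than Hsp83, and with edgeR's TMM factors its ratio was 1.56. Hsf (FBgn0001222; 2R, 18130303 to 18134634), which encodes the activator of the other genes, stood at 155 CPM (S1), 157 CPM (S2) and 155 CPM (S3). Its ratio was 1.02, and 82 of the listed genes (1.60%) had a lower one. This evenness depends on the scaling: with edgeR's TMM factors Hsf stood at 161 CPM (S1), 158 CPM (S2) and 149 CPM (S3), a ratio of 1.09, and 47.3% of the listed genes had a lower one. Counting error was small beside the differences of the inducible genes, at most 1.22% of a count in Hsf and 0.83% in DnaJ-1.

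Over the 10 genes, 8 had a highest CPM at least 2 times the lowest (the 6 Hsp70 copies, Hsp68 and DnaJ-1), against 0.545% of the listed genes (28 of 5135). Their median ratio was 3.10, against 1.12 over all listed genes. The order S1 above S2 above S3 held for 9 of the 10 genes and for 8.26% of the listed genes. On CPM the median log2 difference of S1 minus S3 over the listed genes was -0.12, a shift that TMM and DESeq2's size factors remove. With those factors the order held for 10 of the 10 genes and for 24.4% (TMM) and 25.6% (DESeq2) of the listed genes, and S1 held 3.44 and 3.46 times the summed Hsp70 level of S3. These counts overstate the number of separate observations, since the Hsp70 copies can share reads. They also rest on the libraries at the extremes. Without S3 none of the 10 reached 2 (0 genes; their ratios of S1 over S2 were 1.59 to 1.79 for the Hsp70 copies, 1.496 for Hsp68 and 1.27 for DnaJ-1). Without S1, 4 genes reached 2, and the ratios of S2 over S3 were 1.74 to 2.07 for the Hsp70 copies. Without S3, 15 listed genes reached 2, and without S1, 5 did. With edgeR's TMM factors, DESeq2's size factors or totals that left out the 10 genes, the count of 8 was the same.

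The 10 places with the largest ratios in the table held 7 of these genes, in places 4 to 10, and DnaJ-1 stood in place 14. Beside them, 8 rows named as ribosomal RNA or its pseudogenes also passed 2, and all 8 were highest in S1. Summed, these rows stood at 2159 CPM (S1), 766 CPM (S2) and 1058 CPM (S3), so S2 and not S3 was lowest. Of these 8 rows 1 had the order S1, S2, S3, against 8 of the 8 chaperone genes and 8.26% of the listed genes. The Hsp70 copies among these chaperone genes can share reads. The ribosomal rows held 0.22% (S1), 0.08% (S2) and 0.11% (S3) of the listed counts. Leaving them out of the totals could therefore hardly change a ratio. With these rows and the 10 genes left out, 8 chaperone genes had a ratio of at least 2. The remaining 12 rows were mixed, and 8 of them were not highest in S1. S1 was lowest in 7 of the 12, among them lncRNA:cherub at 1557 CPM (S1), 3383 CPM (S2) and 2768 CPM (S3). Another was cas, a temporal factor of neural progenitors, at 143, 305 and 258 CPM, in the same direction as ase. These examples were chosen after their values were seen. What part RNA quality, the ribosomal reads or the makeup of the sorted cells had in the order of libraries was not tested.

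**Figure D2:**
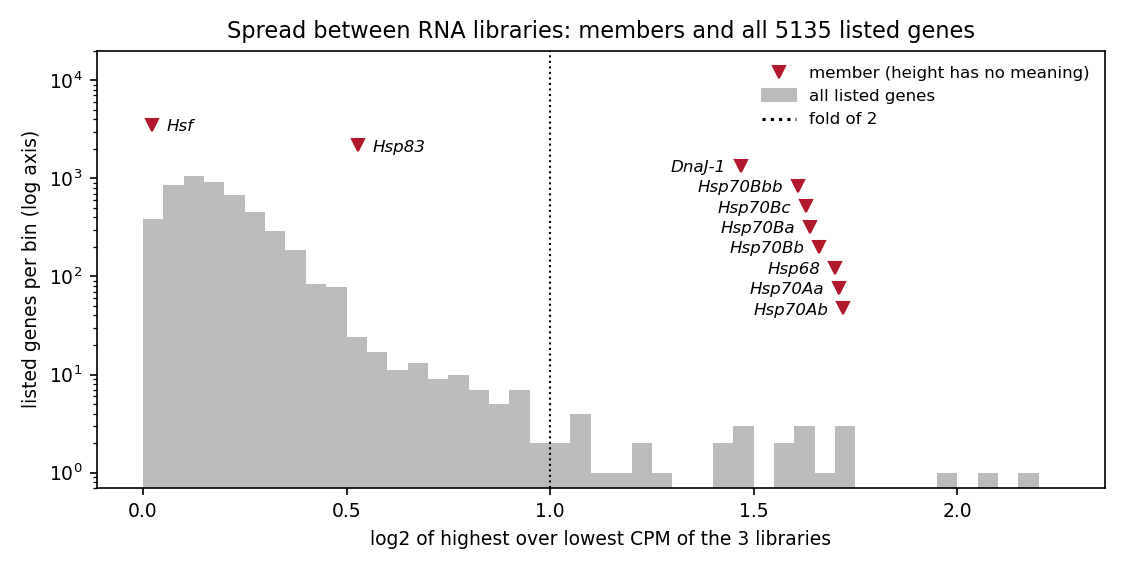
Number of listed genes (log axis) by the log2 of the highest over the lowest CPM of the 3 RNA libraries, with the 10 genes marked by triangles whose height has no meaning. Of the 10 genes, 8 lie right of the dotted line at a fold of 2, where 28 of the 5135 listed genes lie in all, and on this scaling Hsf lies near the left edge.

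Levels of different genes were compared per kilobase of gene span, because exons and coding lengths were not analysed here. The Hsp70 genes have no introns, while the spans of Hsp83 and Hsf include introns, which lowers their values on this scale. Hsp70Ba averaged 1336 ± 734 CPM per kb, Hsp70Aa 1309 ± 707, Hsp70Bc 1230 ± 668 and Hsp70Ab 1148 ± 621 (SD, n = 3). Hsp83 averaged 948 ± 172 CPM per kb and Hsp68 831 ± 437 (SD, n = 3). Next came Hsp70Bb at 551 ± 302, Hsp70Bbb at 323 ± 172, DnaJ-1 at 232 ± 105 and Hsf at 36.0 ± 0.30 CPM per kb (SD, n = 3). The ranges over libraries overlapped in 8 of the 9 neighbouring pairs of this order, and only the ranges of DnaJ-1 and Hsf were separated. Compared within each library, the pairs from Hsp68 and Hsp70Bb downwards kept this order in all 3. The pairs from Hsp83 and Hsp68 upwards kept it in 2.

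Hsp83 changed place most. On this scale it stood in place 6 in S1, with 1092 CPM per kb, in place 5 in S2, with 995, and in place 1 in S3, with 758. In S3 it lay above Hsp70Ba (684 CPM per kb), Hsp70Bc (631) and Hsp70Aa (622). In S1 the same genes stood at 2131, 1951 and 2034 CPM per kb. Hsp70Bb, Hsp70Bbb, DnaJ-1 and Hsf held places 7 to 10 in every library.

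Few listed genes outside the 10 had a pattern over libraries like that of the summed Hsp70 copies. Likeness was measured as the distance between log2 CPM values centred over the 3 libraries, among genes of at least 10 CPM on average. It depends on the size of the differences as well as on the order, so a gene with a small ratio lies far away even in the same order. Single Hsp70 copies lay 0.04 to 0.10 from their sum. This closeness is partly built in, since each copy is part of the sum and the copies can share reads. Hsp68 lay at 0.16, DnaJ-1 at 0.29, Hsp83 at 0.81 and Hsf at 1.18. The nearest other gene was the small heat-shock gene Hsp26, at 0.29, with 2910 CPM (S1), 1948 CPM (S2) and 1217 CPM (S3). Sirup followed at 0.44, with 33.4, 24.1 and 16.1 CPM, and the small heat-shock gene Hsp67Bc at 0.45, with 699, 430 and 329 CPM. The next 3 were GEFmeso, ct and Dscam2, at 0.67, 0.67 and 0.68, with ratios of 1.71, 1.69 and 1.70.

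A long non-coding RNA of the same locus, lncRNA:alphagamma-element:CR32865 (FBgn0052865; 3R, 12475336 to 12478267), lies between Hsp70Ba and the tandem copies. It is known as a heat-inducible transcript of the Hsp70 locus. It was chosen after its values were seen and stood at 72.5 CPM (S1), 79.9 CPM (S2) and 20.1 CPM (S3). S3 was lowest here too, but S2 was above S1. Its ratio of 3.97 ranked 3 in the table.

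The other genes of the chaperone system were then set beside these, in 8 lists of 100 genes in all, of which 67 were listed. Of these 67 genes, 2 had a ratio of at least 2, against 8 of the 10 genes above. Both, Hsp26 and Hsp67Bc, belong to the small heat-shock proteins, which hold unfolded proteins in a soluble state. In that list 6 of 12 genes were listed, with a median ratio of 1.27 and the order S1, S2, S3 in 4. Its most abundant members by mean CPM were Hsp23 (3780 ± 571 CPM), with a ratio of 1.33, and Hsp27 (2724 ± 279 CPM; SD, n = 3). These and the other examples without a ratio of at least 2 in this list were chosen after their values were seen. Hsp22 and CG4456, whose spans overlap, were not listed.

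The constitutive counterparts of Hsp70 were abundant and, on CPM, even. Ratios of the related lists were computed on this scaling only, and the evenness of Hsf depended on the scaling. Hsc70-4, the main cytosolic cognate, stood at 2913 CPM (S1), 3093 CPM (S2) and 3005 CPM (S3), and Hsc70-3, the cognate of the endoplasmic reticulum, at 1050, 1028 and 1044 CPM. The 6 listed genes of this list had a median ratio of 1.06 and a highest ratio of 1.19, with mean levels from 26.2 to 3004 CPM. The cognates Hsc70-1 and Hsc70-2 and the exchange factors Sil1 and stv were not listed. Summed Hsp70 copies were above Hsc70-4 in each library, but this compares CPM summed over 6 genes with that of 1 gene. The 11 listed genes of the Hsp90 family and its cochaperones had a median ratio of 1.07, with Gp93, the Hsp90 of the endoplasmic reticulum, at 759 ± 13.8 CPM and the cochaperone p23 at 365 ± 42.9 CPM (SD, n = 3). Unlike Hsp83, p23 was lowest in S1 (318 CPM) and highest in S3 (401 CPM).

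J-domain cochaperones other than DnaJ-1 had a median ratio of 1.09 over 10 listed genes. Droj2 stood at 507 ± 1.95 CPM and Csp, the J-domain protein of synaptic vesicles, at 338 ± 7.01 CPM (SD, n = 3). These small SDs hold on CPM, and their size under other scalings was not analysed here. The exception was jdp, named after its values were seen, at 26.7 CPM (S1), 53.2 CPM (S2) and 48.9 CPM (S3), a ratio just under 2 (1.995) in the other direction. The 9 listed chaperonin genes, cytosolic and mitochondrial, had a median ratio of 1.10. The 2 most abundant by mean CPM were subunits of the cytosolic complex that folds actin and tubulin, with CCT2 at 380 ± 18.0 CPM and CCT5 at 362 ± 23.9 CPM (SD, n = 3).

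Further stress genes varied less than the inducible chaperones. Among 8 listed heat-inducible and proteotoxic stress genes the median ratio was 1.12 and the highest 1.38, in lncRNA:Hsromega, a heat-inducible nuclear RNA named after its values were seen, which stood at 332 CPM (S1), 241 CPM (S2) and 254 CPM (S3). The polyubiquitin genes Ubi-p63E (1358 ± 95.5 CPM) and Ubi-p5E (432 ± 49.8 CPM; SD, n = 3) were lowest in S1. In the list of immediate early and JNK response genes 5 of 12 were listed, with a median ratio of 1.10. Its gene puc, a JNK phosphatase induced by the pathway it restrains, stood at 124 CPM (S1), 92.0 CPM (S2) and 88.9 CPM (S3), and CG13868 at 186 ± 1.88 CPM (SD, n = 3). The 12 listed genes of the pausing and release list had a median ratio of 1.09. The highest in mean CPM was pAbp, at 2028 ± 55.2 CPM (SD, n = 3), a cytoplasmic poly(A)-binding protein and so not a pausing or release factor. Next was brm, the ATPase of a chromatin remodeller, at 629 ± 25.6 CPM (SD, n = 3).

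**Figure D3:**
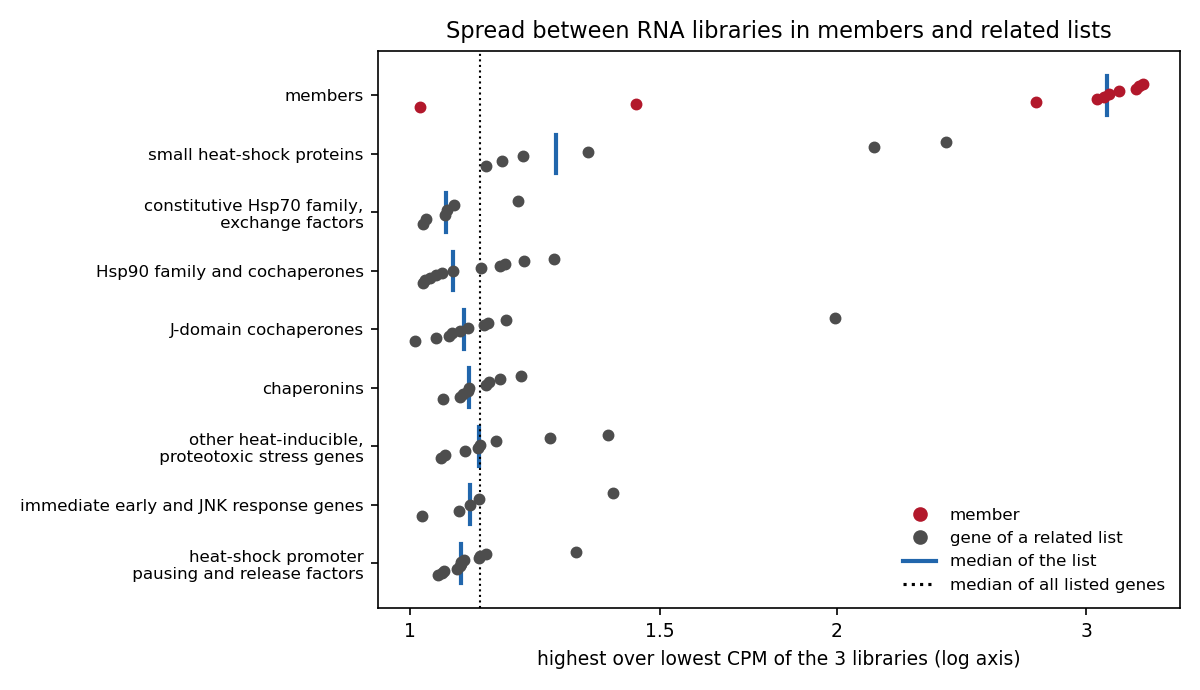
Highest over lowest CPM of the 3 RNA libraries (log axis) for each listed gene of the members and of 8 related lists, with the median of each list as a blue line and that of all listed genes dotted. Of the members, 8 of 10 lie above 2, and of the related genes 2 of 67 (Hsp26 and Hsp67Bc, among the small heat-shock proteins).

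Binding was read from the authors' DamID lists, with 4064 distinct peaks of Sd and 3649 of Nerfin-1 and no height or replicate value. A peak counted for a gene when it overlapped the gene or the 1 kb before or after it. By this measure 7 of the 10 genes had peaks of both proteins, against 27.7% of all protein-coding genes and 45.9% of those listed in the RNA table. Sd peaks were found at 8 of the 10, against 35.6%, and Nerfin-1 peaks at 8, against 32.9%. The counts for the 10 genes overstate the number of separate observations. Hsp70Bb and Hsp70Bbb both count through 1 shared peak, and the near-identical copies can share reads. Only Hsp70Aa had neither, as did 59.1% of the protein-coding genes. With peaks limited to the longer 50% of each list, 2 genes had a Sd peak (Hsp83 and Hsf), 1 a Nerfin-1 peak and 1 both (Hsp83). Of all protein-coding genes 20.1%, 18.3% and 14.6% did, so under this limit the 10 genes were not above the background. The peaks at the other genes were no longer than the medians of 1139.5 bp for Sd and 1146 bp for Nerfin-1.

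Most of the peaks lay over an end of a gene. Of the 8 genes that a DamID peak overlapped, 7 had a peak that reached past 1 end, and the exception was Hsp83. The gene table used here carries no strand, so whether an end is the start of transcription was not analysed here. At Hsp70Ab both lists held the peak from 11957817 to 11958810, which covered the first 276 bp of the span and the 718 bp before it. This peak reaches into the gap between Hsp70Ab and Hsp70Aa, and its near edge is 1273 bp from Hsp70Aa. With 5 kb on either side Hsp70Aa would count as having peaks of both proteins.

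At Hsp70Ba the peak from 12467537 to 12468508, again with the same boundaries in both lists, covered the last 240 bp of the span and 732 bp beyond. At DnaJ-1 the peak from 5749810 to 5750670 was shared and covered 219 bp before the gene and the first 642 bp of it. At Hsf the shared peak from 18134307 to 18134756 covered the last 328 bp and 122 bp beyond. A second Sd peak, from 18127713 to 18129412, lay 891 bp before the gene. Inside it was a Nerfin-1 peak, from 18128979 to 18129295, which lay 1008 bp before Hsf and so just outside the 1 kb counted. The shared peak in Hsp83, from 3193096 to 3194561, was the longest of these, at 1466 bp, and lay wholly inside the gene, 127 bp from its lower end. Further peaks of Sd (131 bp) and Nerfin-1 (960 bp) lay past its upper end, where CG14966 overlaps Hsp83 by 15 bp.

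Of the 7 Sd peaks that overlapped the genes, 6 overlapped a Nerfin-1 peak. These 6 had the same boundaries in both lists, as did 53.4% of all Sd peaks that overlap a Nerfin-1 peak. The Dam-only samples are shared by both fusion proteins, and their use in the calling is not described in the labels. At 2 of the 10 genes, Hsp68 and Hsp70Bc, the lists differed. Hsp68 had a Nerfin-1 peak from 24057031 to 24057869, over its last 280 bp and 559 bp beyond, while the nearest Sd peak lay 6924 bp away. Hsp70Bc had a Sd peak and no Nerfin-1 peak nearer than 3020 bp. With no value per replicate, these differences between the lists could not be tested.

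The tandem copies allow the same place to be compared in near-identical genes. Hsp70Bbb, Hsp70Bb and Hsp70Bc start 3283 bp apart. The Sd peak at Hsp70Bb, from 12505182 to 12506056, began 611 bp before the gene and ended in its first 264 bp. The Sd peak at Hsp70Bc, from 12508465 to 12509339, had the same length of 875 bp and the same place relative to its gene. The matching window at Hsp70Bbb (12501899 to 12502773) was covered by 0 bp of Sd peaks. Nerfin-1 covered this window at Hsp70Bb in full and at the other 2 copies by 0 bp. Hsp70Bbb counted as having both because the peak of its neighbour Hsp70Bb began 326 bp past its end, whereas the authors' deposited table paired it with a Sd peak 2879 bp on its other side and with no Nerfin-1 peak. How reads from repeated sequence were placed is not given, so the copy to which a peak belongs is uncertain.

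**Figure D4:**
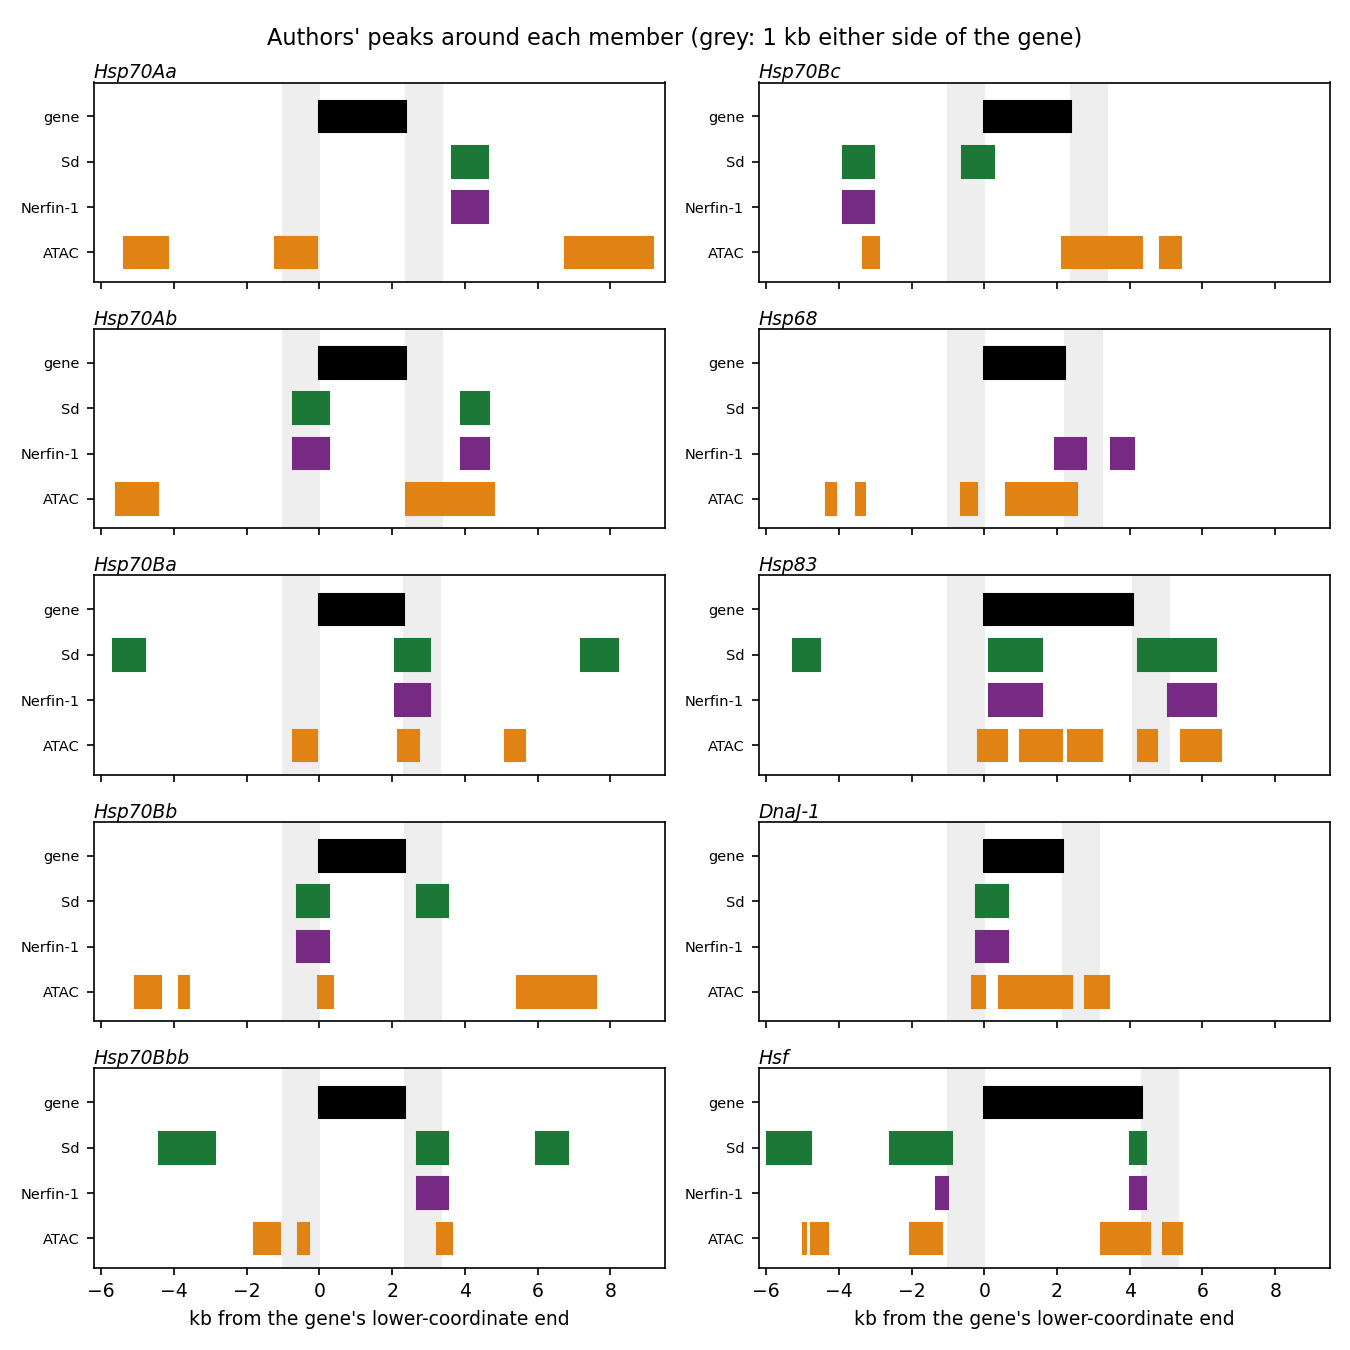
Authors' Sd, Nerfin-1 and ATAC peaks within 5 kb of each gene, as bars along the distance in kb from the gene's lower-coordinate end, with the gene in black and 1 kb on either side shaded. Shared Sd and Nerfin-1 peaks sit at an end of Hsp70Ab, Hsp70Ba, Hsp70Bb, DnaJ-1 and Hsf, and ATAC peaks cover most of Hsp68, Hsp83 and DnaJ-1 but at most 16.1% of an Hsp70 copy.

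Open chromatin was read from the authors' list of 35494 ATAC peaks. All 10 genes had an ATAC peak within 1 kb, but so did 83.2% of the protein-coding genes and 98.9% of the listed ones. The genes differed in how much of them was covered. ATAC peaks lay over 82.6% of the span of DnaJ-1, 73.2% of Hsp68, 66.6% of Hsp83 and 25.7% of Hsf. Coverage of at least 50% was thus seen in 3 of the 10 genes, against 1.02% of the protein-coding genes with spans of 2161 to 4332 bp and 1.43% of those listed in the RNA table. In Hsp83 this came from 3 peaks of 802, 1173 and 919 bp, and in the other 2 genes mainly from 1 long peak. That in Hsp68, from 24055677 to 24057622, measured 1946 bp, and that in DnaJ-1, from 5750441 to 5752433, 1993 bp. Peaks at least that long made up 0.52% and 0.43% of the list, whose median length was 447 bp.

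The Hsp70 copies, whose RNA was abundant, had ATAC peaks over 0% to 16.1% of their spans, against a median of 12.1% for listed genes of that range of spans. At Hsp70Bb a peak from 12505754 to 12506169 covered the first 377 bp and overlapped the DamID window by 303 bp. At Hsp70Ba a peak from 12467617 to 12468184 lay over the same end as the DamID peak. Hsp70Aa had its nearest ATAC peak 60 bp before its lower end, and the gap to Hsp70Ab, which the DamID peaks partly cover, held none. The ATAC peak counted for Hsp70Ab overlapped 4 bp of it and extended 2424 bp past it, and that at Hsp70Bc (236 bp of overlap) extended 1944 bp past the gene. The sources used here do not say whether reads matching several copies were kept, and their part in the low coverage was not tested.

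Among the related lists, both proteins had peaks at 46 of 99 protein-coding genes, against 27.7% of all protein-coding genes and 45.9% of those in the RNA table, which holds 67 of the 100 genes of these lists. The small heat-shock genes had both at 9 of 12, among them Hsp26, Hsp67Bc and the unlisted Hsp22. Several of these genes are neighbours on 3L and can share peaks. The pausing and release list had both at 9 of 13, including Trl, the GAGA factor that opens heat-shock promoters, which was not listed in the RNA table. The cognate list had both at 4 of 10 (Hsc70-3, Hsc70-4, Hsc70-5 and Hsp110), the Hsp90 cochaperones at 5 of 12, the J-domain list at 6 of 14 and the immediate early list at 6 of 12. The chaperonins had both at 3 of 13 and the further stress genes at 4 of 13. ATAC peaks were found at 94 of the 99 genes. No test was run on these counts.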

How the data were processed

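RNA-seq, ATAC-seq and DamID samples were read from the authors' deposited files. The build dm6 is named in the submitters' processing notes, and so are Bowtie2, Subread, featureCounts, edgeR, MACS2 and bedtools, with no versions, settings or roles. The RNA file holds raw read counts per FlyBase gene, as deposited by the authors for genes they kept as expressed (lowest count 99); 0 columns were left unmapped. The peak files hold positions only, as deposited, with no depth, so the depth of these samples is unknown.

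The members and lists were chosen with earlier results of these data known. Members matched by symbol to FlyBase identifiers and to RefSeq Release 6 positions (10 of 10); of 8165 identifiers in the files, 167 matched no symbol. CPM was computed on listed counts. Overlap meant at least 1 bp with the gene or 1 kb either side. The code was tested on simulated data. edgeR 4.0.16 (TMM) and DESeq2 1.42.0 gave alternative scalings; Python 3.11.15 and pandas 2.3.3 did the rest. The RNA samples form 1 group, so no differential test was run. Genes named beside the members were, in each related list, those with a ratio of at least 2 (up to 6) or else the 2 of highest mean, and the 6 genes nearest to the Hsp70 pattern; others are said to be chosen later or serve as examples of peak status. Coding lengths, strand and sequences were not analysed here, so gene span replaced coding length and planned motif counts were left out.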

Additional observations from a re-analysis of the deposited data

How the results depend on the processing

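Of the results on RNA, the mean summed Hsp70 level of 13935 CPM was 14140 CPM with TMM and 14143 CPM with DESeq2's size factors. It was 9939 to 17450 CPM when 1 library was left out. These values lie within 1 SD of the main value, but that SD comes from the same libraries. Leaving out 1 of them cannot move a mean that far, so this limit does not test the level. The count of genes with a ratio of at least 2 was 8 under every scaling. It was 0 to 8 when 1 library was left out, being 4 without S1 and 0 without S3. With a fold of 1.5 it was 8 on CPM, the only scaling used for that fold. Hsp83, at 1.44 on CPM, would pass that fold with TMM (1.56) and with DESeq2's size factors (1.57). Over all listed genes the count was 27 under the other scalings, 26 for genes of at least 10 CPM, 5 to 19 with 1 library left out and 94 with a fold of 1.5. The ratio of Hsf, 1.02 on CPM, was 1.09 with TMM and with DESeq2's size factors, where 47.3% and 50.9% of the listed genes had a lower one. The order of levels kept 10 genes in place under other scalings, 5 to 10 with 1 library left out and 6 with CPM not divided by length. With the longer 50% of peaks, Sd peaks were at 2 genes, Nerfin-1 peaks at 1 and both at 1 (8, 8 and 7 with all peaks), against 20.1%, 18.3% and 14.6% of all protein-coding genes; height and replicate values were not analysed here, so length stood in for strength. With the gene alone, 5 kb flanks, 100 bp of overlap or the authors' assignment, both peaks were at 6, 9, 7 and 6 genes, while 21.0%, 46.9%, 27.2% and 20.9% of all protein-coding genes had both. ATAC peaks were at 8 to 10 genes, against 65.8% to 98.5% of all protein-coding genes. For single genes, 12 values of the ratio dropped below 2 (without S1 or S3) and 58 kept their side of it, while 23 peak calls changed and 117 did not. By the same limit of 1 SD, 2 levels moved and 68 did not. Both that moved were of Hsf, whose SD was only 1.30 CPM. The fold of 1.5, the ribosomal rows, undivided CPM and the minimum ATAC length were chosen after seeing the data. No paired analysis was possible because the peak lists hold no value per replicate and the RNA samples form 1 group. Errors cover the spread between RNA pools, not between animals.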
